A study of Homo sapiens with 8 samples.

Results

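The regions described here lie at ZNF521, ZNF423 and the EBF genes EBF1, EBF2, EBF3 and EBF4, which encode DNA-binding proteins of a zinc finger and a helix-loop-helix family. They were taken as every listed region that overlaps the RefSeq span of one of these 6 genes (GRCh38) extended by 3000 bp on both sides. In all 45 regions qualified of 55650, made up of 41 of 35154 for RBBP4 and 4 of 20496 for P300. The genes were chosen by the RBBP4 densities of the ZNF521 regions in these libraries, so their counts and ratios are a description of these libraries and carry no test. In the small cell lung cancer line NCI-H69, an established human line, CSNK2B, which encodes the regulatory subunit of casein kinase 2, was targeted with small interfering RNA, and the control cells received non-targeting RNA. All cells were transfected with a lipid reagent and their chromatin was fixed 48 h later. Chromatin fragments bound by RBBP4 or P300 were sequenced as paired 150 bp reads, and each antibody had 1 immunoprecipitated library in each arm. Without replicates the spread between cultures is unknown for every difference below. An input library accompanied each of these 4 libraries, 8 libraries in all, and the inputs were not used here.

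EBF proteins are helix-loop-helix transcription factors that bind DNA as dimers. EBF1 sets up the B lymphocyte lineage, EBF2 acts in mouse brown fat cells and in migrating neurons, EBF3 acts in neuronal development, and EBF4 is a more distant relative. ZNF521 and its paralogue ZNF423 are large zinc finger proteins that bind EBF1 and hold back its activity, and ZNF423 also joins SMAD proteins downstream of bone morphogenetic protein. Both carry a short N-terminal motif that recruits NuRD, a histone deacetylase and nucleosome remodelling complex of which RBBP4 is a subunit. P300, encoded by EP300, is an acetyltransferase found at active enhancers and promoters.

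Densities are in RPKM as deposited, that is reads per kb of region scaled to library depth, and the depth used was inferred to be the sum of reads over every tested region. These depths came to 1207945 reads in the knockdown and 833181 in the control library for RBBP4, and to 946392 in the knockdown and 1092789 in the control library for P300. Folds are ratios of reads scaled to these totals, given with a 95% exact binomial interval that covers counting error only, since no molecular identifiers are described. The authors' own log2 fold change uses another scaling, not given in the sources used here, and lies 0.58 above this scale for RBBP4 and is shifted by -0.44 for P300. Direction, higher or lower, follows the sign of the deposited log2 fold change. Only regions with an unadjusted p under 0.05 stood in the authors' deposited table of each antibody, and genes with none there may still be bound. Peak names carry an arm, and the named arm had the higher density in 35151 of 35154 RBBP4 and 20496 of 20496 P300 regions. Arms were read from column names, for RBBP4 from initials alone, and a swap would turn every direction. CSNK2B itself had 0 listed regions for either antibody, and these data do not measure its knockdown. Cell identity could not be checked from regions of this kind.

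Of the start windows in the RefSeq table, 2 whose start lay inside a listed RBBP4 region at these genes are shown with their sequence. The first is the upstream start of ZNF423, the more upstream of its 2 windows there, on the minus strand at chr16:49857920-49858169. Of the 250 bases before this start 26, in capitals, fell inside the region. The second is the start of LINC02202, a long non-coding RNA gene that begins beside EBF1 and runs the opposite way, on the plus strand at chr5:159100233-159100532. All 300 of its bases, again in capitals, fell inside the region as listed. The high-coordinate end of the EBF1 span, the upstream end of this minus-strand gene, lies inside the same region, but the table has no window there. The 250 bases before the EBF1 start that it does hold, inside the gene, chr5:159097957-159098206, lay 1075 bp from that region. All are RefSeq sequences of GRCh38.p14, written 5′ to 3′.
ZNF423 upstream start: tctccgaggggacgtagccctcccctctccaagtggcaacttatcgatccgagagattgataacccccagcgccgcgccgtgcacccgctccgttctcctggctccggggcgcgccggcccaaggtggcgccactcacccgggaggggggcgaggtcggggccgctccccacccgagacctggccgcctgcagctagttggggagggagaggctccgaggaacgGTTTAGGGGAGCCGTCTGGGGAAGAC
LINC02202 start: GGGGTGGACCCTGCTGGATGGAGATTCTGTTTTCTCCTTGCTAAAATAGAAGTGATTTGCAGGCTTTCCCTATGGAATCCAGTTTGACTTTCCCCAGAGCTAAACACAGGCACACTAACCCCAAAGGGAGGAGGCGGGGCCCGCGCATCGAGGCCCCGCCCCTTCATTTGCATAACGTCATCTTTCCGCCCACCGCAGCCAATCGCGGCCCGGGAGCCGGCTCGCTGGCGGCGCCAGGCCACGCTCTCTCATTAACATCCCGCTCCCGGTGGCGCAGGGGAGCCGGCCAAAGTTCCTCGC
EBF1 internal start: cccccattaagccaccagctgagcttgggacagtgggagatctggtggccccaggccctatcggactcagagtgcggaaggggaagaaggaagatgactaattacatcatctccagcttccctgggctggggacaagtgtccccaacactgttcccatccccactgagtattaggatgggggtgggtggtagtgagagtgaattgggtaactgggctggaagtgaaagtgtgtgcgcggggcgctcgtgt

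The table of start windows matched ZNF423 with 2 windows and EBF1, EBF3 and EBF4 with 1 each. EBF proteins recognise a palindrome whose core is CCCNNGGG, and this core, which reads the same on both strands, was searched in the windows of 300 bases. It occurred 3 times at EBF4, 1 time at EBF3 and 2 times at the internal ZNF423 start, and did not occur at the upstream ZNF423 start, at the internal EBF1 start or at LINC02202. Of all 35116 windows 19.1% held it. Matches may overlap each other. Neither of the 2 windows whose start lay inside an RBBP4 region held these letters. The upstream ZNF423 window lay only partly inside its region.

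RBBP4 density at the genes was mostly higher after CSNK2B knockdown. Of the 41 listed RBBP4 regions 31 were higher and 10 lower, a share of 75.6% higher beside 68.8% of all listed regions. On the log2(RPKM + 1) scale, where the added 1 shrinks the ratios of sparse regions, 28 were at least 2-fold higher (64.9% of all listed regions were) and 10 at least 2-fold lower (31.2%). In the authors' deposited table the adjusted p was under 0.05 for 21 higher regions (48.3% of all listed and 17.8% of all 95329 tested regions) and for 4 lower ones (8.94% and 3.3%). The median log2 ratio of the 41 regions was 1.58, against 1.49 over all listed regions. These shares sit near those of the whole table, and the choice of genes used the same values, so nothing is read from them. Counted by gene, 5 of 6 had a listed RBBP4 region, beside 51.6% of 20037 protein-coding genes and 81.7% of the 3356 of at least 100 kb. The same 5 had one that was higher and that the authors' deposited table puts under an adjusted p of 0.05, as did 38.3% of those genes and 61.6% of the 3356 that span at least 100 kb. A lower one was found at ZNF521 alone, as at 5.6% of all and 20.7% of such long genes.

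**Figure D1:**
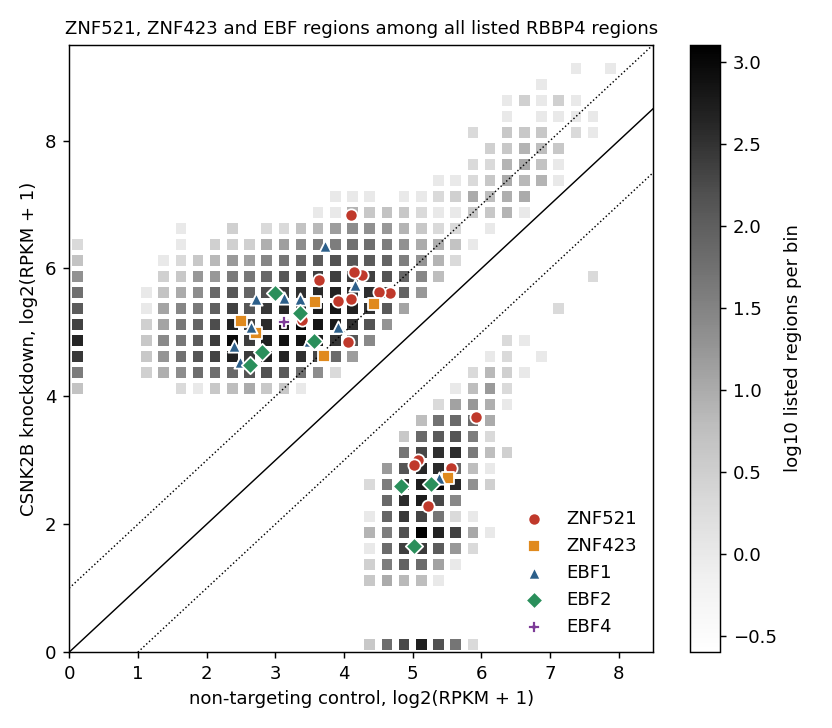
RBBP4 density of the regions at ZNF521, ZNF423, EBF1, EBF2 and EBF4 (coloured symbols) over bins of all listed RBBP4 regions (grey squares), with the control library across and the knockdown library up, both as log2(RPKM + 1). The solid line marks equal density and the dotted lines a 2-fold ratio, and the ZNF521 region at 113.7 against 16.1 RPKM is the highest symbol.

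ZNF521, on chromosome 18 from 25061924 to 25352166, had 15 listed RBBP4 regions, the most of the 6 genes. Of 20037 protein-coding genes 61 had more and 14, itself included, had as many. That made 5.06 listed regions per 100 kb, against a median of 1.09 and a 90th percentile of 2.74 over genes of at least 100 kb. EBF2, at 3.82 per 100 kb, also lay above that percentile. EBF1 had 2.68, ZNF423 1.59, EBF4 1.36 and EBF3 0. At ZNF521 density was higher in 10 regions and lower in 5, so the gene held differences in both directions within one span.

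The strongest of these, at chr18:25325375-25327012, held 225 reads after knockdown and 22 in the control. Its density was 113.7 RPKM after knockdown and 16.1 RPKM in the control, a 7.05-fold higher value (4.55 to 11.5), and the authors' deposited table gives its adjusted p as 7.17e-20. By p it ranked 17 of 35154, and 8 of 34956 once a stretch of chromosome 8 with raised reads in both libraries was set aside. The control density lay at percentile 58.8 of all listed regions. That set includes 10974 lower regions, listed for their higher control density, so the percentile is not a rank among higher regions. The region lies 25154 bp inside the gene from its high-coordinate end. The annotation used here gives neither strand nor exons for ZNF521, so its promoter was not placed.

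Higher ZNF521 regions crowded towards that end of the gene. Within 80 kb of it lay 10 of the 15 regions, 9 higher and 1 lower, over a stretch of 67.5 kb, a limit chosen after the positions were seen. Together these 10 held 496 reads after knockdown and 108 in the control over 6.97 kb of covered sequence. That is 71.1 and 15.5 reads per kb, not scaled to library depth. The other 5 regions, 1 higher and 4 lower, held 33 reads after knockdown and 71 in the control over 2.58 kb. Unscaled as well, these were 12.8 and 27.6 reads per kb. No listed region lay closer than 6273 bp to the high-coordinate end or 92627 bp to the other end.

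**Figure D2:**
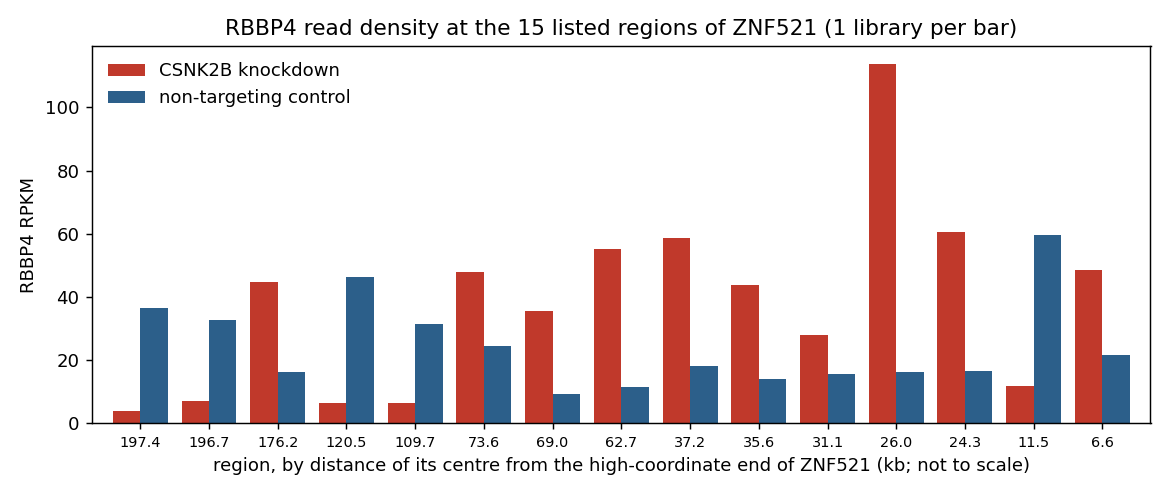
RBBP4 density (RPKM) at the 15 listed regions of ZNF521 in the knockdown library (red) and the control library (blue), 1 library per bar, ordered by distance in kb from the high-coordinate end of the gene. Red bars exceed blue in 9 of the 10 regions within 80 kb of that end, and blue exceed red in 4 of the other 5.

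The neighbours of the strongest region were higher by sign as well. The next one, at chr18:25327564-25328138 and only 551 bp beyond it, had 42 reads after knockdown against 8 in the control, 3.62-fold higher (1.68 to 8.93). On the other side, after a gap of 3753 bp, the region at chr18:25320551-25321621 had 36 reads against 14, 1.77-fold (0.93 to 3.56), with an interval that includes equal density. Regions at chr18:25314643-25315304 and chr18:25316400-25316739 had 47 reads against 10 and 18 against 4 in the control.

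Farther in, chr18:25289221-25289640 had 28 reads after knockdown against 4 in the control, 4.83-fold higher (1.69 to 18.9). The region at chr18:25282748-25283635 had 38 against 7, 3.74-fold higher (1.65 to 9.94). Nearest to the high-coordinate end, chr18:25345230-25345893 had 39 against 12, 2.24-fold higher (1.15 to 4.70). All 3 had an adjusted p under 0.05 in the authors' deposited table. That table gave no such value to chr18:25278405-25278697, with 17 reads against 6, or chr18:25175779-25176074, with 16 against 4.

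Set among the higher regions was one in the opposite direction. At chr18:25340487-25340909 there were 6 reads after knockdown and 21 in the control, 5.07-fold lower (1.98 to 15.4), and the control density of 59.6 RPKM was the highest control value in the gene. It lies between the regions starting at 25327564 and 25345230, both higher. The other lower regions were deeper in the gene: 7 reads against 23 at chr18:25242040-25242915, 3 against 15 at chr18:25231442-25231830, 2 against 13 at chr18:25154551-25154979 and 5 against 16 at chr18:25155223-25155809. The last of these had no adjusted p under 0.05 in the authors' deposited table, where it was given as 0.112. With 4 lower regions that did have one, ZNF521 was exceeded by 3 protein-coding genes and 8 genes, itself included, had that count. Of its regions, those starting at 25242040 and 25278405 also overlap LOC105372031, a non-coding gene inside ZNF521.

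Summed over its 15 regions ZNF521 had 529 knockdown and 179 control reads over 9.55 kb, a ratio of 2.04 once scaled to library depth. Such a ratio depends on which regions were listed. The strongest region held 42.5% of the knockdown reads and 12.3% of the control reads. Without it the sums were 304 and 157 and the ratio 1.34, so 1 region decided the size of the summed difference. For P300 no region was listed at ZNF521, and the nearest lay 98.8 kb beyond its high-coordinate end, with 0 reads after knockdown and 8 in the control.

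Among 10305 other protein-coding genes with a listed region outside the chromosome 8 stretch, the nearest match to ZNF521 was sought. Likeness was the distance in log2(RPKM + 1) over the 2 RBBP4 libraries between each gene's region of smallest p and that of ZNF521. RNF216, a ubiquitin ligase gene, was nearest at a distance of 0.0700, with 111.6 RPKM after knockdown and 16.9 RPKM in the control. TSHR, the thyrotropin receptor, followed at 0.0977 with 108.2 and 16.9 RPKM, and AOPEP, an aminopeptidase, at 0.0996 with 106.1 and 16.2 RPKM. PANK3, a pantothenate kinase, stood at 0.146 and TRPM3, a cation channel, at 0.178.

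ZNF423, on chromosome 16 from 49487524 to 49859279, had 6 listed RBBP4 regions, 5 higher and 1 lower. The paralogue thus carried fewer than ZNF521, at 1.59 per 100 kb, and none as deep. Its strongest region, at chr16:49701723-49702486, had 40 knockdown and 7 control reads, 3.94-fold higher (1.75 to 10.4). The region before it, chr16:49700408-49700814, had 21 reads against 7, 2.07-fold (0.85 to 5.76).

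At the upstream start of ZNF423 the RBBP4 region chr16:49857514-49857945 had 16 knockdown and 2 control reads. That was 30.7 and 5.56 RPKM, 5.52-fold higher (1.297 to 49.5), and its adjusted p was 0.0156 in the authors' deposited table. It covers that start itself and the capitals in the sequence above. Both lie inside the ZNF423 span, whose high-coordinate end is 1334 bp beyond the region. The region at chr16:49551956-49552213 had 11 reads against 1, 7.59-fold higher (1.10 to 327). At chr16:49618101-49618694 there were 17 against 6, and the lower region, chr16:49815223-49815518, had 2 against 11, 7.97-fold lower (1.74 to 74.0). These last had no adjusted p under 0.05 in the authors' deposited table. Over the 6 regions ZNF423 had 107 knockdown and 34 control reads, on 2.75 kb.

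EBF1, on chromosome 5 from 158695920 to 159099916, had 11 listed RBBP4 regions, 10 of them higher, and 8 of these had an adjusted p under 0.05 in the authors' deposited table. ZNF521 had 8 such regions as well, and 96 protein-coding genes had more. Summed reads were 336 after knockdown and 54 in the control over 7.22 kb, a ratio of 4.29 once scaled to library depth. Regions were listed for a difference between the libraries, so this ratio depends on which regions were listed. Per kb and before scaling the EBF1 sums were 46.5 reads after knockdown and 7.48 in the control. The ZNF521 regions held 55.4 and 18.7, under the same limit.

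The region of smallest p at EBF1, chr5:158821321-158822822, had 82 knockdown and 7 control reads. Its density was 45.2 and 5.59 RPKM, 8.08-fold higher (3.75 to 20.7), and the authors' deposited table lists it at adjusted p 6.10e-11. The next region, chr5:158823146-158824177, had 56 reads against 8, 4.83-fold higher (2.29 to 11.7). Both lie deep in the gene, 125401 and 127226 bp from its low-coordinate end. The densest was chr5:158992345-158992834, with 48 reads against 5, or 81.1 and 12.2 RPKM, 6.62-fold higher (2.65 to 21.3).

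Other higher regions of EBF1 were shallower. Reads were 17 after knockdown against 2 in the control at chr5:158802962-158803272, 21 against 3 at chr5:158854564-158855341, and 27 against 3 at chr5:158975619-158976460. At chr5:159050878-159051162 there were 18 against 4. An adjusted p under 0.05 was given to these 4 in the authors' deposited table, but not to chr5:158915184-158915534 with 12 against 3 or chr5:158952898-158953322 with 17 against 5. The lower region, chr5:159023214-159023509, had 2 against 10, 7.25-fold lower (1.54 to 68.0), and lies between higher ones.

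The remaining EBF1 region, chr5:159099282-159100651, spans the high-coordinate end of EBF1 and the start of LINC02202 shown above. It held 36 reads after knockdown and 4 in the control, or 32.8 and 5.29 RPKM, 6.21-fold higher (2.23 to 24.0), at adjusted p 7.46e-05 in the authors' deposited table. The listed width of 1370 bp gave no whole reads here. These counts were solved from the authors' log2 values and fit 908 bp, so the stretch in which reads were counted is not known exactly. Density at this shared end cannot be assigned to either gene.

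**Figure D3:**
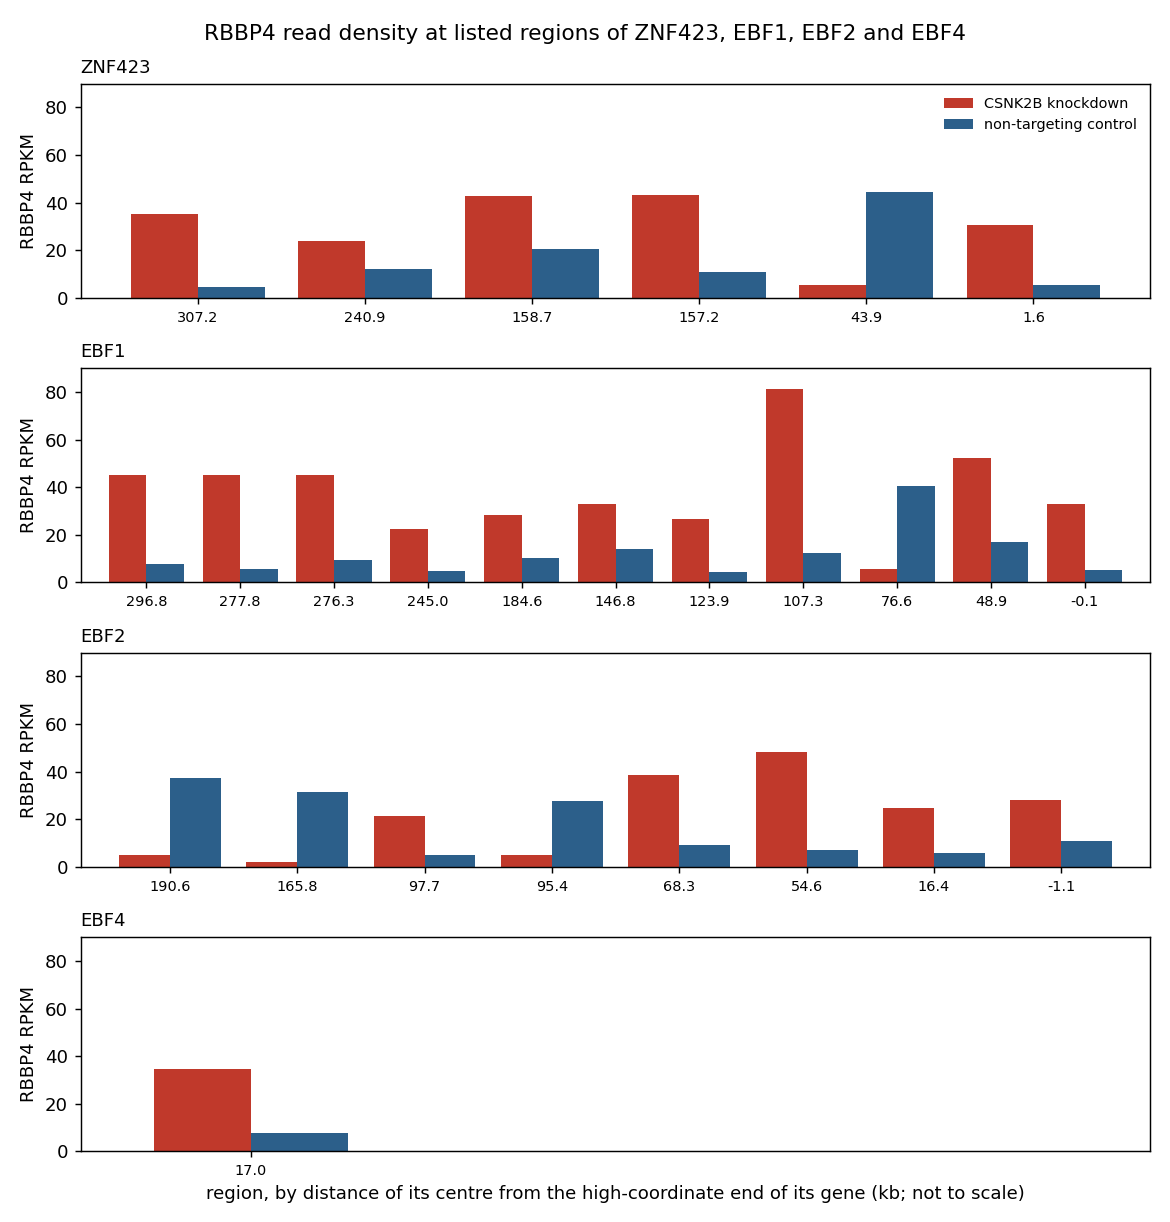
RBBP4 density (RPKM) at the listed regions of ZNF423, EBF1, EBF2 and EBF4 in the knockdown library (red) and the control library (blue), 1 library per bar, ordered by distance in kb from the high-coordinate end of each gene, with negative values beyond it. Red exceeds blue in 10 of 11 EBF1 regions, 5 of 6 at ZNF423 and 5 of 8 at EBF2, and EBF3 had no listed region.

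EBF2 and EBF4 each had 1 region past the adjusted threshold. EBF2, on chromosome 8 from 25841725 to 26045413 and outside the stretch named above, had 8 listed RBBP4 regions, 5 higher and 3 lower. The 1 with an adjusted p under 0.05 in the authors' deposited table, chr8:25990547-25991062, had 30 knockdown and 3 control reads, 6.90-fold higher (2.15 to 35.3). Regions at chr8:25947513-25947976, chr8:25976939-25977196 and chr8:26028781-26029179 each had 12 against 2, with intervals of 0.92 to 38.1 that include equal density. The region 877 bp beyond the high-coordinate end, chr8:26046290-26046732, had 15 against 4, and it is a member through the added 3000 bp alone.

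Of the 3 lower EBF2 regions 2 lay towards its other end and 1 near its middle. There were 2 reads after knockdown against 10 in the control at chr8:25854659-25854978, inside the non-coding gene LOC102723395 as well, 1 against 10 at chr8:25879423-25879805, and 4 against 15 at chr8:25949722-25950375. The largest of these differences was at the region starting at 25879423, 14.5-fold lower (2.06 to 629), where it rests on 1 read. Summed over 8 regions the reads were 88 after knockdown and 48 in the control. Scaled to library depth the ratio was 1.26, which depends on which regions were listed. In EBF4, on chromosome 20 from 2692780 to 2760108, the only listed region, chr20:2742952-2743261, had 13 reads against 2, 4.48-fold higher (1.02 to 40.9). It lies 50172 bp from the low-coordinate end, where the EBF4 start is.

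EBF3, on chromosome 10 from 129835233 to 129964274, had 0 listed RBBP4 regions, although 81.7% of genes of at least 100 kb had one. The nearest lay 13.2 kb before its low-coordinate end, in LOC107984281, with 2 reads after knockdown and 10 in the control. Whether RBBP4 peaks without a listed difference exist there cannot be seen from these tables.

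By position, 3 of the 31 higher RBBP4 regions and 0 of the 10 lower ones came within 3000 bp of an end of their gene, at ZNF423, EBF1 and EBF2. All others lay inside gene spans. The share over all listed RBBP4 regions is not given here, so no contrast between directions is read from these counts. Higher regions were 258 to 1638 bp wide and held 12 to 247 reads over both libraries, with a median of 24. Lower ones were 296 to 876 bp wide and held 11 to 30 reads, with a median of 16.5, so the lower calls rest on fewer reads. Over all listed RBBP4 regions the medians were 24 reads for higher and 13 for lower ones.

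**Figure D4:**
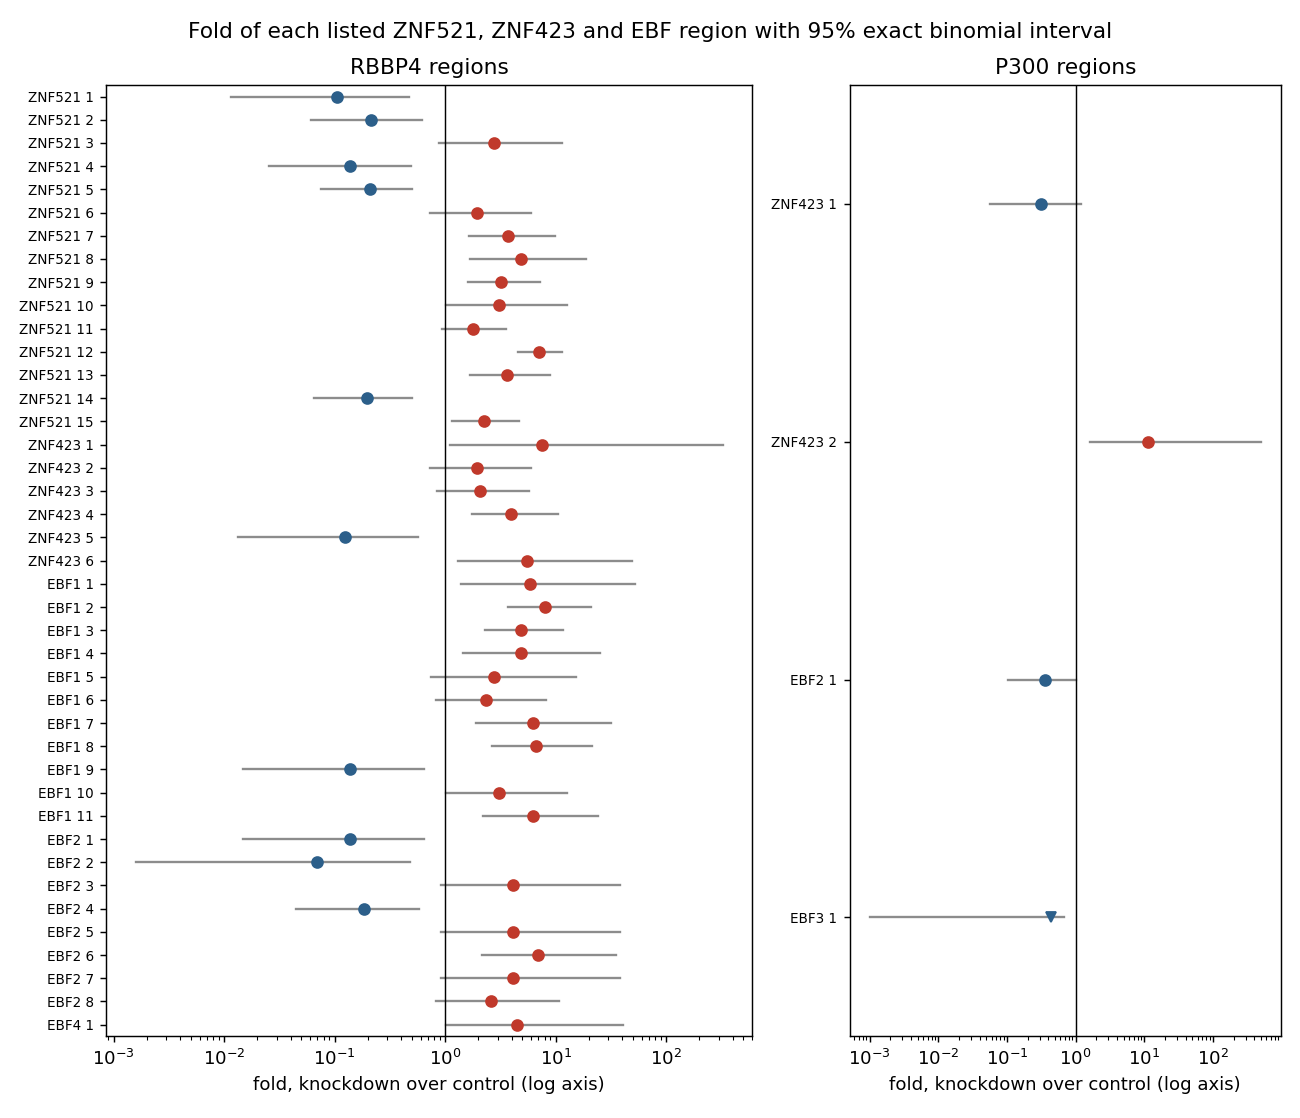
Fold of knockdown over control density for each listed region, numbered from the low-coordinate end of its gene, RBBP4 on the left and P300 on the right, on log axes. Points are ratios of scaled reads, lines are 95% exact binomial intervals for counting error, and the triangle marks a ratio computed with a floor of 3 reads for a library at 0; its interval runs to 0 and is cut at 0.001. ZNF521 region 12, at 7.05, has the narrowest RBBP4 interval.

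P300 differences at these genes were few and shallow. Of the 4 listed regions 1 was higher and 3 were lower, all at least 2-fold by the RPKM ratio, which held for 34.7% of all listed P300 regions in the higher and 64.3% in the lower direction. None had an adjusted p under 0.05, since 0% of at least 134012 tested regions did in the authors' deposited table, although all 20496 listed ones had an unadjusted p under 0.05 there. ZNF521, EBF1 and EBF4 had no listed P300 region, while 23.6% of protein-coding genes and 68.8% of those of at least 100 kb had one.

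At ZNF423 P300 differed in both directions close to the upstream start. The region chr16:49855105-49855360 had 10 knockdown and 1 control reads, or 41.3 and 3.57 RPKM, 11.5-fold higher (1.64 to 501). Only 1385 bp away, chr16:49853289-49853719 had 3 reads against 11, 3.18-fold lower (0.84 to 17.7), an interval that includes equal density. The first of these lies 2154 bp from the RBBP4 region over the upstream start, where density was also higher. At EBF2 chr8:25913968-25914628 had 5 against 16, 2.77-fold lower (0.97 to 9.67), and its nearest RBBP4 region was 32885 bp away. The EBF3 region, chr10:129882914-129883106, had 0 reads against 8, 2.31-fold lower with the floor of 3 reads in place of 0. The lower limit of its exact interval was 1.48. The libraries of each antibody carry their own batch label, so differences between RBBP4 and P300 cannot be told apart from batch. Extending the gene spans by 10000 bp would add 1 P300 region, chr8:25832406-25832841 below EBF2, with 3 reads after knockdown and 14 in the control.

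Partner and target genes were drawn from known roles, with examples chosen after their values were seen. Shares set beside these lists are over protein-coding genes of any length, and gene length was not matched. Of genes spanning at least 100 kb, 61.6% had a higher RBBP4 region with an adjusted p under 0.05 in the authors' deposited table. A lower one was found at 20.7% of them. Of 14 NuRD subunit genes 9 had a higher RBBP4 region whose adjusted p was under 0.05 in the authors' deposited table and 1, GATAD2A, had a lower one, beside 38.3% and 5.6% of all protein-coding genes. CHD3, a remodelling ATPase, had 35 reads after knockdown against 3 in the control, 8.05-fold higher (2.54 to 40.9). MTA1, a scaffold subunit, had 71 against 16, 3.06-fold higher (1.76 to 5.64). Their 22 listed regions had a median log2 ratio of 1.76, against 1.49 over all listed regions.

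Of 8 other zinc finger genes whose proteins carry the NuRD-recruiting motif 4 had such a higher region and 2 such a lower one, beside 38.3% and 5.6% of all protein-coding genes. Their median log2 ratio was 1.67 over 33 regions, against 1.49 over all listed regions. BCL11B, a T cell and neuronal factor, had 95 reads after knockdown against 10 in the control, 6.55-fold higher (3.41 to 14.1). ZFPM2, a GATA cofactor, had 38 against 3, and 13 higher regions in all beside 1 lower. SALL1, a developmental repressor, had 2 against 13. BCL11A and BCL11B had 8 higher regions each.

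Genes of bone morphogenetic protein, SMAD and retinoid receptor signalling, in which ZNF423 takes part, were listed together with PARP1, 17 in all. A higher region of that kind was found in 13 of these, PARP1 included, and a lower one in 1. Among all protein-coding genes 38.3% and 5.6% had one, and among those of at least 100 kb 61.6% and 20.7%. Over 60 regions their median log2 ratio was 2.18, against 1.49 over all listed regions. RARB, a retinoic acid receptor, had 18 higher regions and 2 lower, the strongest with 159 reads after knockdown against 16 in the control, 6.85-fold higher (4.09 to 12.3). ID2, an inhibitor of helix-loop-helix factors, had 76 against 7, 7.49-fold higher (3.46 to 19.3). Of their 20 listed P300 regions 17 were lower, and the median log2 ratio of the 20 was -1.998, beside 65.3% and -1.70 over all listed P300 regions. RARB alone held 9 of these lower regions, and 5 of the 17 genes had a listed P300 region. BMPR2 and RARB had P300 regions in both directions.

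Genes known as EBF targets in other cell types were counted as well. Of 8 genes of the B cell program 1, FOXO1, had a higher region past the threshold in the authors' deposited table, with 32 reads after knockdown against 7 in the control. FOXO1 also had a lower one, with 0 against 11, 5.32-fold lower with the floor of 3 reads in place of 0. The exact upper limit of its ratio was 0.275. Of 6 fat cell genes 3 did, namely PPARG, CEBPA and PRDM16, and PPARG, the master factor of fat cells, also had a lower one with 2 against 16. Among all protein-coding genes 38.3% had such a higher region and 5.6% such a lower one. The median log2 ratios were 1.55 over 5 regions and 1.43 over 11, against 1.49 over all listed regions. Occupancy by RBBP4 does not show whether a gene is expressed, and no expression was measured here.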

How the data were processed

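RBBP4 and P300 ChIP-seq of NCI-H69 cells gave 1 table of listed regions per antibody. The submitters' processing notes name the build GRCh38 with Bowtie2 2.4.5, DiffBind 3.4.11, MACS2 2.2.7.1, ChIPseeker 1.28.3, Trim Galore 0.6.7 and FastQC, without their roles. RPKM per library was computed by the authors, per the file names. The log2 fold change and mean log2 CPM were deposited by the authors, per the file headers. Each p-value, raw and adjusted, is as deposited.

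Reads were recovered from RPKM times region width, which was whole within 0.01 of a read for 98.3% of RBBP4 and 99.4% of P300 regions. For the other 596 and 131 regions the pair of whole reads was solved that returned the deposited log2 values. On simulated reads 99.96% of 35154 RBBP4 regions were recovered, and 100% of 20496 P300 regions. Most simulated regions kept their listed width, and the simulated log2 values had the form that the recovery assumes. These percentages therefore do not show that the solved counts are right. With 1 library per group no test was made. A floor of 3 reads replaced 0 in folds. Intervals are 95% exact binomial (scipy 1.17.1). Gene spans and start windows came from RefSeq GRCh38.p14. Regions were given in full for up to 8 regions per gene with an adjusted p under 0.05 in the authors' deposited table, and for the smallest p per gene, antibody and direction, and all others were added after their values were seen. Lists followed known roles. The genes and lists were chosen with earlier results of these data known. No column of another sample was present, and input libraries were not used.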

Additional observations from a re-analysis of the deposited data

How the results depend on the processing

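The 28 higher and 10 lower RBBP4 regions at 2-fold were recounted under 7 other settings each. A 4-fold threshold left 13 higher and 10 lower, and a minimum of 20 reads over both libraries left 19 higher and 3 lower. For P300, 1 higher and 3 lower regions became 1 and 1 at 4-fold and 0 and 1 with at least 20 reads. With an unadjusted p under 0.001 in place of the adjusted one, both from the authors' deposited table, 14 RBBP4 regions passed, against 25. The authors' own log2 fold changes, whose scaling is not given in the sources used here, gave 31 higher and 10 lower RBBP4 regions. With them each of the 29 named folds kept its direction and stayed inside its interval. A pseudocount of 0.1, the gene span alone, a flank of 10000 bp or the region's centre moved no count by more than 1.5 times. No paired analysis was possible because each group had 1 library. Low read counts in the lower library widen the intervals of many folds.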
